A study of Mus musculus with 12 samples.

Results

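The alpha subunits of the heterotrimeric G proteins were followed through translating ribosome affinity purification (TRAP) libraries of the mouse ventral hippocampus (vHPC). The 10 genes were taken by name from the 37310 genes of the count files: Gnai1, Gnai2, Gnai3 and Gnao1 of the Gi/o class, Gnas and Gnal of the Gs class, Gnaq and Gna11 of the Gq class, and Gna12 and Gna13 of the G12/13 class. All 10 had a row in the count files and all 10 passed the filter on low counts in every comparison.

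The study asked which mRNAs differ in vHPC neurons that project to the nucleus accumbens (NAc) when the FosB gene, which encodes the transcription factors FosB and ΔFosB, is removed from them. All mice, WT included, were of the strain C57BL/6, carried a Cre-dependent gene for the ribosomal protein L10a fused to GFP at Rosa26, and received a retrograde herpes simplex virus for Cre (HSV-Cre) in NAc 3 weeks before tissue collection. The labels call the tissue hippocampus neurons, and the protocol describes punches of vHPC in which GFP was seen. FosB KO mice also carried FosB fl/fl, so that by design the gene is cut in cells that take up the virus, the same cells in which ribosomes are tagged.

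GFP-tagged ribosomes were pulled down with anti-GFP antibodies for the TRAP libraries, and input libraries were made from vHPC tissue without that step. There were 12 libraries in 4 groups of 3: WT TRAP and WT input of pools 1, 2 and 3, and KO TRAP and KO input of pools 2, 3 and 4. Each pool held 3 mice by the labels and 3 to 4 by the protocol, and the age and sex of the mice are not given in the labels. The WT and KO pools that share a number are different mice.

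A heterotrimeric G protein couples a receptor in the membrane to enzymes and channels in the cell. An activated receptor makes the alpha subunit exchange GDP for GTP and part from the beta and gamma subunits, and the alpha subunit hydrolyses GTP to end the signal. The class of the alpha subunit sets the pathway: Gs stimulates adenylyl cyclase, Gi/o inhibits it and frees the beta and gamma subunits that open GIRK channels, Gq activates phospholipase C beta, and G12/13 acts on the actin cytoskeleton.

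On mm9, with Gencode vM1, the Gi/o genes are Gnai1 (ENSMUSG00000057614.5, chr5:17770953-17866231, minus strand), Gnai2 (ENSMUSG00000032562.7, chr9:107516461-107537673, minus strand), Gnai3 (ENSMUSG00000000001.4, chr3:107910198-107949064, minus strand) and Gnao1 (ENSMUSG00000031748.9, chr8:96333866-96493288, plus strand). The Gs genes are Gnas (ENSMUSG00000027523.12, chr2:174109821-174172245, plus strand) and Gnal (ENSMUSG00000024524.9). The Gq genes are Gnaq (ENSMUSG00000024639.5, chr19:16207321-16461953, plus strand) and Gna11 (ENSMUSG00000034781.5, chr10:80991469-81007935, minus strand). The G12/13 genes are Gna12 (ENSMUSG00000000149.5, chr5:141234362-141306385, minus strand) and Gna13 (ENSMUSG00000020611.8, chr11:109224145-109262683, plus strand).

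Members of a class are close in sequence, which bears on whether their reads can be told apart. The end of the coding sequence encodes the tail of the protein that contacts the receptor, and for 8 of the genes the last 60 coding bases before the stop codon are shown to let the classes be compared, read from mm9 on the strand of the gene. Capitals mark the bases that differ from the first gene of the class listed, which is Gnai1 at chr5:17772840-17772899, Gnaq at chr19:16457822-16457881 or Gna12 at chr5:141236506-141236565.
Gnai1: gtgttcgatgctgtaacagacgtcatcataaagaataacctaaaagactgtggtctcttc
Gnai2: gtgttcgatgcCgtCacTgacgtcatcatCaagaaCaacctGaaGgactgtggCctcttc
Gnai3: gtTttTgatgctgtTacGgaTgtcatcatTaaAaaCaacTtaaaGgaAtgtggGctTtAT
Gnao1: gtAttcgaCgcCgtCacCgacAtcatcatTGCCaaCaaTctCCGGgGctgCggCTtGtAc
Gnaq: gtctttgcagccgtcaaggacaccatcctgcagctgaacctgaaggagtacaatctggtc
Gna11: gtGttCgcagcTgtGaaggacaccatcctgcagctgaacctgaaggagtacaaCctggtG
Gna12: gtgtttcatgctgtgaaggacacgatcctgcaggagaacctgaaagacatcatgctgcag
Gna13: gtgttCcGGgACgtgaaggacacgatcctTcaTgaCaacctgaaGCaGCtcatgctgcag

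In this stretch Gna11 (chr10:80993543-80993602) differed from Gnaq at 6 bases, and Gnai2 (chr9:107517969-107518028) from Gnai1 at 8. Gnai3 (chr3:107912343-107912402) differed from Gnai1 at 15 and Gnao1 (chr8:96490893-96490952) at 22, while Gna13 (chr11:109257738-109257797) differed from Gna12 at 12. Over the whole coding sequence the closest pair of each class was Gnaq and Gna11 with 80.5% identity, Gnai1 and Gnai2 with 78.7%, Gnas and Gnal with 73.3%, and Gna12 and Gna13 with 69.4%. The longest run of identical bases in any of these pairs was 38, between Gnaq and Gna11. When stretches of 75 bases from all exons were aligned to mm9, only 6 of 697 stretches of Gnal and none of the other 9 genes also aligned elsewhere at 2 mismatches or fewer, and reads of that length can be told apart within the family.

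The libraries held 3416030 to 5614089 counts on genes, and 3 counts stood at 0.534 to 0.878 CPM before scaling. Each level is in CPM, the counts of a gene set to a common library total, with TMM factors over the 12 libraries. The lowest level of any of the 10 genes was 14.4 CPM, for Gnai3 in WT TRAP 2, above that floor in every library. As the check of the genotype, Fosb gave 45.3, 32.0 and 40.2 CPM in WT TRAP, with 29.4, 18.8 and 21.5 CPM in KO TRAP. The ranges did not overlap, where 11.9% of genes had ranges apart. Its log2 fold change was -0.76, a level of 59.0% of WT (edgeR quasi-likelihood test, unadjusted p = 0.00126, adjusted p = 0.337). From reads plotted over the gene, the study reports almost no FosB expression in KO TRAP. In input Fosb was at 22.3 to 30.3 CPM in WT and 14.9 to 17.1 CPM in KO, also with ranges apart, where 8.38% of genes had. Its log2 fold change of -0.68, or 62.5% of WT, did not pass either (edgeR, unadjusted p = 0.00557, adjusted p = 1). The TRAP to input ratio of Fosb did not pass as different between genotypes (log2 difference of -0.08, edgeR, unadjusted p = 0.791). Of the marker genes of cell types, 8 of 11 neuron and 5 of 8 glutamate neuron markers were higher in TRAP than in input at adjusted p under 0.05 in edgeR, and 8 of 10 GABA neuron, 10 of 10 astrocyte, 12 of 12 oligodendrocyte and 11 of 11 microglia markers were lower. The mitochondrial genome gave 0.0305% to 0.130% of counts in TRAP and 5.29% to 9.05% in input, and WT input 1 had counts on 15678 genes where the other 5 inputs had 17255 to 18090.

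How abundant each subunit was within the family was compared per length, in CPM per kb of the union of a gene's exons. Gnao1, the alpha subunit of Go and a major protein of neuronal membranes, had the highest level in all 4 groups, at 168 ± 5.0 CPM per kb in WT TRAP and 160 ± 7.60 in WT input (SD, n = 3). In WT TRAP it was followed by Gnai1 with 124, Gnai2 with 73.6, Gnas with 55.2, Gnaq with 52.5, Gna11 with 46.2, Gnal with 18.0, Gna12 with 7.28, Gnai3 with 5.53 and Gna13 with 3.54 CPM per kb. Neighbours in this order did not overlap between libraries, except Gnas with Gnaq and Gna12 with Gnai3.

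The order in KO TRAP was the same, and there the ranges of Gna12 and Gnai3 overlapped while those of Gnas and Gnaq did not. In WT input Gnai2, at 110 CPM per kb, stood above Gnai1 at 92.8 with no overlap, the reverse of their order in TRAP, and KO input had the same reversal with 114 against 87.2 CPM per kb. Gnai3 was the lowest of the 10 in both input groups, with 8.09 and 6.93 CPM per kb, although its range overlapped that of Gna13 in WT input. The place of Gnas turns on the length used, since its 22 annotated transcripts span an exon union of 11186 bases and the longest of them has 3947. By the longest transcript Gnas was second to Gnao1 in both TRAP groups, with 156 and 164 CPM per kb, and its range overlapped that of Gnai2 in both input groups.

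As shares of the summed level per kb of exon union, the Gi/o genes held 67.0% ± 0.67 in WT TRAP and 67.6% ± 1.83 in WT input (SD, n = 3). G12/13 genes held the smallest share, at 1.95% ± 0.19 in WT TRAP and 5.03% ± 0.44 in WT input. In KO the G12/13 share was 2.16% ± 0.26 in TRAP and 5.28% ± 0.84 in input. Gs genes held 13.2% and 13.3% in WT and KO TRAP against 10.1% and 11.1% in input. The Gi/o class therefore made up most of the summed level of these 10 genes in both preparations. By the longest transcript its share was 63.5% in WT TRAP and 66.6% in WT input. Within the class, Gnai1 held 22.4% and 21.8% in WT and KO TRAP against 16.9% and 15.9% in input. Gnai2 held 13.3% and 14.3% in TRAP against 20.1% and 20.7% in input.

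**Figure D1:**
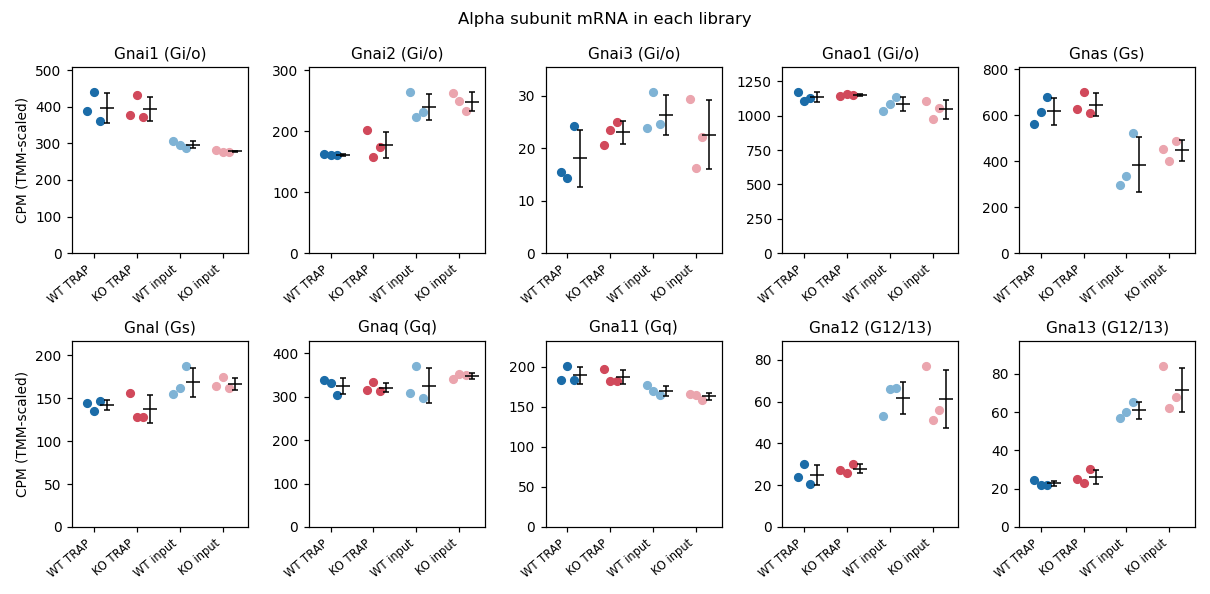
Level of each alpha subunit mRNA in CPM scaled with TMM factors (vertical axes, each from 0) in TRAP of WT and KO and in input of WT and KO. Points are libraries, and the bars beside them give the mean ± SD of 3 libraries. Gnai1 and Gnas sat higher and Gnai2, Gna12 and Gna13 lower in TRAP than in input, while WT and KO points overlapped in each panel but Gnai1 in input.

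TRAP was then compared with input to see which alpha subunit mRNAs were more or less abundant on the tagged ribosomes of vHPC-NAc neurons than in the vHPC tissue around them. In such bulk samples, fewer cells of a type and less RNA per cell cannot be told apart, and a lower value in TRAP can only be read relative to all cells of the punch. Over both genotypes, 7 of the 10 genes passed the edgeR quasi-likelihood test at adjusted p under 0.05, where 42.2% of the 13214 genes tested did. Gnai1, Gnas and Gna11 were higher in TRAP, in a background of 19.6% of genes, and Gnai2, Gnal, Gna12 and Gna13 were lower, in a background of 22.5%. The same 7 genes passed without WT input 1, the input with counts on the fewest genes. The median log2 ratio was -0.16 over the 10 genes and -0.01 over all genes tested.

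Among the Gi/o genes, Gnai1, which encodes an inhibitor of adenylyl cyclase, gave 389, 441 and 361 CPM in WT TRAP, with 305, 296 and 287 CPM in WT input. In KO it lay at 377, 432 and 373 CPM in TRAP and at 281, 277 and 278 CPM in input. Every TRAP library was thus above every input library. The log2 ratio was 0.46 ± 0.069 (SE, edgeR, adjusted p = 4.22e-06), a level in TRAP of 138% of input.

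Gnai2, which shares that role and is also abundant in cells outside the nervous system, went the other way. It gave 162, 160 and 160 CPM in WT TRAP, with 201, 158 and 173 CPM in KO TRAP, against 265, 224 and 231 CPM in WT input and 263, 249 and 233 CPM in KO input. The highest TRAP library, KO TRAP 2, lay below the lowest input library, WT input 2. The log2 ratio was -0.53 ± 0.076 (SE, edgeR, adjusted p = 2.67e-06), or 69.3% of input.

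Gnai3, the least abundant of the inhibitory subunits, ranged from 14.4 to 25.0 CPM in TRAP and from 16.2 to 30.8 CPM in input, with overlap in both genotypes. Its log2 ratio of -0.26 had a 95% interval of -0.62 to 0.09 and did not pass (edgeR, adjusted p = 0.227). Gnao1 ranged from 1109 to 1175 CPM in TRAP and from 972 to 1135 CPM in input, and its log2 ratio of 0.10, with an interval of -0.01 to 0.22, did not pass either (edgeR, adjusted p = 0.152). For Gnao1 the interval leaves room for a TRAP level of 99.0% to 116% of input, and for Gnai3 for 65.2% to 106%.

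Of the Gs genes, Gnas, the stimulator of adenylyl cyclase found in nearly all cells, had the highest TRAP to input ratio of the 10. It gave 561, 613 and 678 CPM in WT TRAP, with 628, 703 and 611 CPM in KO TRAP. In input it was at 297, 336 and 524 CPM in WT and at 455, 399 and 488 CPM in KO, so that WT input 3 lay apart from WT inputs 1 and 2 and still below every TRAP library. The log2 ratio was 0.60 ± 0.12 (SE, edgeR, adjusted p = 0.000964), or 152% of input. Of its exon bases, 22.0% lie under genes on the other strand, Nespas and AF085738, and the strand setting of the counting is not given in the sources used here, so part of its counts may belong to those transcripts. Its own 22 annotated transcripts were counted together, so the ratio is that of the whole gene.

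Gnal encodes Golf, which takes the place of Gs downstream of dopamine and adenosine receptors in striatum and of odorant receptors. It gave 145, 135 and 147 CPM in WT TRAP, with 156, 128 and 129 CPM in KO TRAP, against 155, 162 and 188 CPM in WT input and 164, 174 and 162 CPM in KO input. The ranges did not overlap within a genotype, although KO TRAP 2 was above WT input 1. The log2 ratio was -0.26 ± 0.080 (SE, edgeR, adjusted p = 0.00939), and it no longer passed without KO TRAP 3 (-0.21, adjusted p = 0.0593) or without WT input 3 (-0.19, adjusted p = 0.0776).

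Of the Gq genes, Gnaq, an activator of phospholipase C beta, ranged from 304 to 338 CPM in TRAP and from 298 to 372 CPM in input. Its log2 ratio was -0.06 with an interval of -0.20 to 0.08 (edgeR, adjusted p = 0.520), so a TRAP level of 86.9% to 106% of input is within its error. Gna11, which activates the same enzymes, gave 183, 201 and 183 CPM in WT TRAP, 197, 182 and 181 CPM in KO TRAP, 176, 169 and 164 CPM in WT input and 166, 164 and 158 CPM in KO input. The TRAP libraries were all above the input libraries, by a log2 ratio of 0.18 ± 0.071 (SE, edgeR, adjusted p = 0.0480). That call stood at the edge of the threshold and was lost without WT TRAP 2 (adjusted p = 0.107), KO TRAP 2 (0.0885), KO TRAP 4 (0.0508), WT input 3 (0.0569) or KO input 4 (0.0573) in edgeR, with the log2 ratio between 0.16 and 0.20 in these fits.

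The G12/13 genes, whose products act on cell shape and movement, differed most. Gna12 gave 23.9, 29.9 and 20.8 CPM in WT TRAP, with 27.4, 25.9 and 30.4 CPM in KO TRAP, against 53.0, 65.9 and 66.5 CPM in WT input and 77.2, 51.0 and 55.7 CPM in KO input. Gna13 gave 24.4, 21.7 and 22.1 CPM in WT TRAP, with 25.2, 23.2 and 30.1 CPM in KO TRAP, against 57.1, 60.2 and 65.4 CPM in WT input and 84.3, 62.1 and 68.0 CPM in KO input. For both genes the highest TRAP library was well below the lowest input library, and KO input 2 was the highest input.

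The log2 ratio of Gna12 was -1.22 ± 0.13 (SE, edgeR, adjusted p = 2.02e-08), or 42.8% of input, and that of Gna13 was -1.43 ± 0.12 (SE, edgeR, adjusted p = 1.96e-10), or 37.0% of input. The summed level of markers of other cell types was also lower in TRAP: astrocyte markers summed to 332 to 429 CPM in TRAP and 2024 to 2492 CPM in input, oligodendrocyte markers to 164 to 213 and 775 to 1219 CPM, microglia markers to 10.6 to 25.5 and 112 to 226 CPM, and endothelial markers to 1.96 to 8.67 and 16.3 to 34.2 CPM. Of these lists, Tek and Ly6c1 were at 0 in all TRAP libraries, Cldn5 and Vwf in those of WT, and P2ry12 and Slco1a4 in those of KO, and no astrocyte or oligodendrocyte marker was at 0 in every library of a group. GABA neuron markers summed to 364, 280 and 252 CPM in WT TRAP, 621, 166 and 160 CPM in KO TRAP and 747 to 891 CPM in input, so KO TRAP 2, also the highest TRAP library for Gnai2 and Gnal, stood apart. Without it 6 of the 10 genes passed over both genotypes, Gna11 being the one that did not. The part of these cell types in the ratios of Gnai2, Gnal, Gna12 and Gna13 was not tested.

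Within each of the 6 pools, the TRAP library was also set against the input library of the same number, on log2(CPM + 0.5). Gnai1, Gnas and Gna11 were higher in TRAP in 6 of 6 pools, which held for 18.2% of genes, and Gnai2, Gnal, Gna12 and Gna13 were lower in 6 of 6, which held for 20.4%. For each of these 7 genes an exact two-sided sign-flip permutation test gave p = 0.03125, the smallest that 6 pools allow. The pool log2 ratios ran from 0.33 to 0.64 for Gnai1, from 0.32 to 0.92 for Gnas and from 0.05 to 0.25 for Gna11. They ran from -0.71 to -0.39 for Gnai2, from -0.44 to -0.07 for Gnal, from -1.66 to -0.87 for Gna12 and from -1.72 to -1.16 for Gna13. Gnao1 was higher in 5 of 6 pools (exact p = 0.0625), and Gnai3 and Gnaq in 2 of 6 (exact p = 0.375 and 0.28125).

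**Figure D2:**
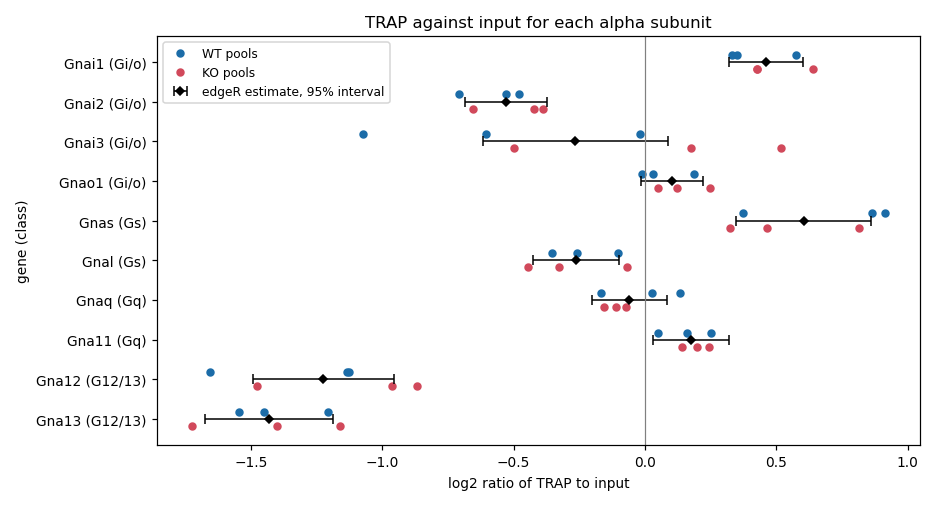
Log2 ratio of TRAP to input (horizontal axis) for each alpha subunit (vertical axis, with its class), with the vertical line at no difference. Colored points are the 3 WT and 3 KO pools, and black diamonds with bars are edgeR estimates over both genotypes with 95% intervals. All 6 points of Gnai1, Gnas and Gna11 lie right of the line, all 6 of Gnai2, Gnal, Gna12 and Gna13 left of it, and those of Gnai3 spread from -1.07 to 0.52.

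The same comparison was made in each genotype apart. In WT, 5 of the 10 genes passed, where 24.9% of 12426 genes did: Gnai1 (log2 ratio 0.43), Gnas (0.68), Gnai2 (-0.57), Gna12 (-1.31) and Gna13 (-1.41). In KO, 5 of the 10 passed, where 29.1% of 12463 genes did, and these were again Gnai1 (0.49), Gnas (0.52), Gnai2 (-0.49), Gna12 (-1.14) and Gna13 (-1.46). Ranges of TRAP and input did not overlap for 7 genes in WT and 9 in KO, in backgrounds of 40.1% and 42.5%. In WT the call of Gnas, at adjusted p = 0.0246 in edgeR, was lost without WT TRAP 2 (0.0598), WT TRAP 3 (0.0593) or WT input 2 (0.0901). In KO, Gnal had a log2 ratio of -0.29 with adjusted p = 0.0538 in edgeR, and it passed with the pool as a replicate block, at -0.29 with adjusted p = 0.0344, and without KO TRAP 2, at -0.39 with adjusted p = 0.0171.

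Whether members of a class moved apart was read from the ratio of their counts within a library, which is free of the scaling between libraries. The pair of each class with the closest coding sequences was used, and as these 4 ratios were chosen after the values were seen, they are given as a description with no test. Gnai1 had 1.88 to 2.75 times the counts of Gnai2 in the 6 TRAP libraries and 1.07 to 1.32 times in the 6 inputs, so the ranges lay apart. Gnas had 3.88 to 5.50 times the counts of Gnal in TRAP and 1.92 to 3.02 times in input, again with no overlap.

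In the other classes the ratio of the pair overlapped between TRAP and input. Gnaq had 1.60 to 1.85 times the counts of Gna11 in TRAP and 1.75 to 2.22 times in input, and it was lower in TRAP in 5 of 6 pools. Gna12 had 0.940 to 1.38 times the counts of Gna13 in TRAP and 0.820 to 1.10 times in input. The Gi and Gs pairs thus separated between the preparations, while the G12/13 genes were low together.

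**Figure D3:**
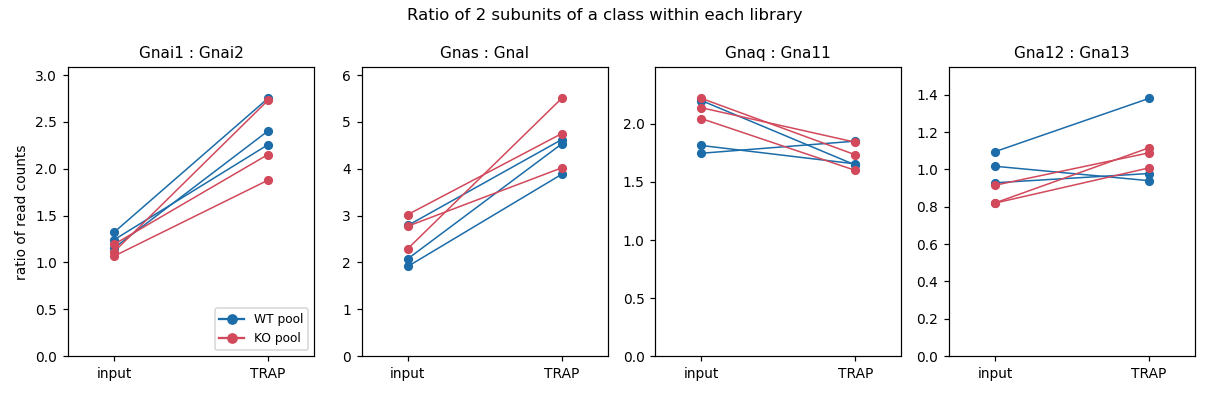
Ratio of the read counts of 2 subunits of a class within each library (vertical axes, each from 0), for input and TRAP (horizontal axis). Each line joins the input and TRAP library of a pool, 3 of WT and 3 of KO. The lines of Gnai1 to Gnai2 and of Gnas to Gnal all rise from input to TRAP, while those of the other pairs run in both directions.

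FosB KO was compared with WT in TRAP to see whether the alpha subunit mRNAs of vHPC-NAc neurons depended on the FosB gene. None of the 10 genes passed the edgeR quasi-likelihood test in TRAP, where 8 of 11727 genes (0.0682%) did, and none had an unadjusted p under 0.05, where 6.05% of genes did. DESeq2 called none of the 10 either. The WT and KO ranges overlapped for all 10, where 11.9% of genes had ranges apart. The log2 fold changes ran from -0.05 for Gnal to 0.36 for Gnai3, with a median of 0.04 over the 10 genes and of 0.00 over all genes tested. Of 11 neuron markers in TRAP, 4 had an unadjusted p under 0.05, all lower in KO, and Nefm passed (edgeR, log2 fold change of -0.49, adjusted p = 0.0298). Their summed level was 11988 to 12698 CPM in WT TRAP and 10439 to 11435 CPM in KO TRAP, and its part in the values of the 10 genes was not tested, nor was that of the GABA neuron markers, which were highest in KO TRAP 2. Without KO TRAP 2 none of the 10 genes passed either.

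For the abundant members the intervals were narrow. The 95% interval of the level in KO TRAP was 90.6% to 113% of WT for Gnao1, 92.1% to 119% for Gnas, 86.5% to 114% for Gnai1, 87.0% to 113% for Gnaq and 85.5% to 114% for Gna11. It was 94.4% to 129% for Gnai2 and 82.1% to 114% for Gnal. For the 3 genes of low level it was wider, at 89.8% to 184% for Gnai3, 83.1% to 151% for Gna12 and 84.8% to 156% for Gna13.

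Gnai3 had the largest of these differences, with 15.5, 14.4 and 24.2 CPM in WT TRAP and 20.7, 23.5 and 25.0 CPM in KO TRAP. WT TRAP 3 lay among the KO libraries, and the log2 fold change of 0.36 ± 0.25 (SE) had an adjusted p of 0.883 in edgeR. It was 0.62 without WT TRAP 3 and 0.24 without WT TRAP 2, and did not pass in either fit. In input Gnai3 was at 23.9, 30.8 and 24.5 CPM in WT and 29.5, 16.2 and 22.1 CPM in KO, a log2 fold change of -0.23 ± 0.23 (SE, edgeR, adjusted p = 1), which was -0.46 without KO input 2, -0.10 without WT input 2 and -0.04 without KO input 3.

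In input none of the 10 genes passed, where 4 of 12816 genes (0.0312%) did, and none had an unadjusted p under 0.05, where 2.89% did. Gnai1 alone had WT and KO ranges apart, at 287 to 305 CPM in WT and 277 to 281 CPM in KO, where 8.38% of genes had. Its log2 fold change was -0.09 with an interval of -0.30 to 0.12 (edgeR, adjusted p = 1), and its TRAP ranges overlapped. The difference of the TRAP to input ratio between the genotypes was tested directly as well. None of the 10 genes passed, where 1 of 13214 did (0.00757%), and none had an unadjusted p under 0.05, where 2.71% did. The largest difference was that of Gnai3, 0.59 ± 0.34 (SE, edgeR, unadjusted p = 0.0947, adjusted p = 1).

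**Figure D4:**
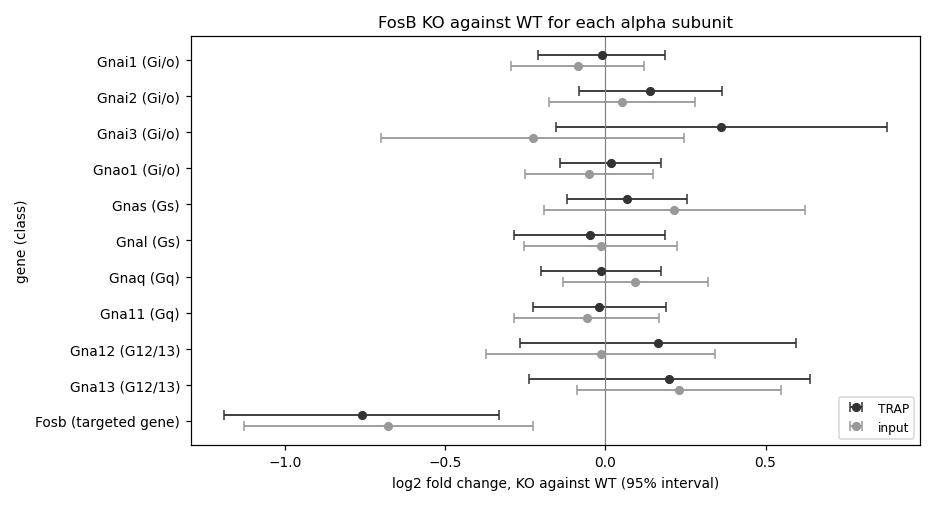
Log2 fold change of FosB KO against WT (horizontal axis) for each alpha subunit and for Fosb (vertical axis), in TRAP (dark) and input (grey). Points are edgeR estimates and bars 95% intervals, from 3 libraries a group. The intervals of all 10 alpha subunits cover 0, and those of Fosb do not.

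Because FosB proteins bind DNA at AP-1 sites, promoters of the family were searched for the motif TGANTCA, which reads the same on both strands. It was found in none of 11 windows of 300 bases around the start sites of 8 of the 10 genes (RefSeq, GRCm38.p6), and in 7.81% of all 32851 such windows. With only 11 windows, a count of none does not set the family apart from that share. Sites outside these windows were not searched.

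The genes whose proteins work with the alpha subunits were counted for TRAP against input over both genotypes, where 19.6% of all genes were higher and 22.5% lower in edgeR. Of the 6 other alpha subunit genes, 2 were tested. Gnaz, a relative of the Gi proteins found in neurons and platelets, was at 271 to 349 CPM in TRAP and 196 to 233 CPM in input, a log2 ratio of 0.57 ± 0.075 (SE, edgeR, adjusted p = 8.04e-07). Gna15, a Gq relative of blood cells, was at 0 to 0.53 CPM in TRAP, under the floor, and at 1.09 to 4.04 CPM in input.

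Of the beta subunits, 2 of 4 tested were higher and none lower: Gnb5, which pairs with RGS proteins in neurons, had a log2 ratio of 0.73 ± 0.073 and Gnb2 of 0.47 ± 0.083 (SE, edgeR, adjusted p = 6.87e-09 and 4.77e-05). Of 10 gamma subunits, 1 was higher and 4 lower. Gng3, a neuronal gamma subunit, was the higher one (0.59), and Gng5 (-2.38) and Gng2 (-0.23) were among the lower. Gng11 was at 0 to 2.12 CPM in TRAP and 3.80 to 6.85 CPM in input. The median log2 ratio was 0.24 over the beta and -0.17 over the gamma subunits.

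RGS proteins speed the hydrolysis of GTP by alpha subunits, and 3 of the 16 tested were higher and 6 lower. Rgs2 (0.45) and Rgs14 (0.42) had the highest log2 ratios among those that passed, and Rgs20 (-1.32) and Rgs5 (-1.27) the lowest. Of 7 chaperones and regulators of nucleotide exchange or release, 1 was higher, Ric8 (0.32), which helps alpha subunits fold. The 4 lower ones included Gpsm1 (-0.89) and Gpsm2 (-1.41), which hold Gi subunits in the GDP form, and Gpsm3, at 0 to 0.94 CPM in TRAP and 0.44 to 5.97 CPM in input.

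Among effectors, none of the 7 adenylyl cyclases tested was higher in TRAP and 3 were lower: Adcy1 (-0.51), Adcy2 (-0.28) and Adcy5 (-0.24). Their adjusted p were 0.0306, 0.0334 and 0.0488 in edgeR, the last at the edge of the threshold. In WT alone only Adcy1 passed, and in KO alone none was lower and 1 was higher. Of the 4 genes of phospholipase C beta, Plcb1 was higher (0.34) and Plcb3 (-2.48) and Plcb4 (-1.22) were lower. Of 3 GIRK channel genes, 1 was lower, Kcnj6 (-0.48).

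Receptors were grouped by the class they couple to. Of 8 Gs or Golf coupled receptors none was higher and 2 were lower, Adcyap1r1 (-1.20) and Htr7 (-0.81). Of 28 Gi or Go coupled receptors 3 were higher, led by the somatostatin receptors Sstr3 (0.63) and Sstr1 (0.58), and 9 were lower, with S1pr1 (-2.47) and Lpar1 the lowest. Within a genotype, Sstr1 passed in KO (0.92, edgeR, adjusted p = 0.00877) and not in WT (0.23, adjusted p = 0.692). Sstr3 also passed in KO (0.68, edgeR, adjusted p = 0.0336) and not in WT (0.58, adjusted p = 0.0597). Lpar1 was at 0 to 2.13 CPM in TRAP and 3.56 to 16.9 CPM in input. Of 16 Gq coupled receptors 2 were higher, Adra1d (0.97) and Chrm1 (0.31), and 3 were lower, among them Adra1a (-1.11) and Chrm3 (-0.97). The part of other cell types, whose markers were lower in TRAP, was not tested for these genes either.

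Between KO and WT TRAP no gene of these lists passed in edgeR. At an unadjusted p under 0.05, which 6.05% of genes had, were 1 of 6 gamma subunits, 2 of 15 RGS genes, 1 of 7 adenylyl cyclases, 5 of 22 Gi or Go coupled receptors and none of the other partner, effector and receptor lists described. Adcy3 was at 33.7 to 43.8 CPM in WT TRAP and 12.3 to 25.5 CPM in KO TRAP, a log2 fold change of -1.03 ± 0.23 (SE, edgeR, unadjusted p = 0.000171, adjusted p = 0.110). Gng7 (0.40), Rgs9 (0.85), Adra2a (0.70) and Grm2 (-0.89) had adjusted p of 0.384, 0.809, 0.444 and 0.728 in edgeR. In input none passed, and the smallest p of each direction in the lists were those of Adcy3 (-0.51), Vipr1 (-0.56), Sstr2 (-0.94) and Chrm5 (1.52), with adjusted p of 1 in edgeR.

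For the member of each class with the highest level per kb, the 2 genes with the most similar pattern over the 12 libraries were sought, by the root mean square difference of log2(CPM + 0.5) after each gene was centred on its mean, among 13214 genes. Gnao1 was closest to Taok2 (0.051) and Hnrnpul1 (0.056), Gnas to Wrnip1 (0.13) and Grhpr (0.13), Gnaq to Tax1bp1 (0.065) and Wac (0.072), and Gna12 to Cnn3 (0.12) and Lap3 (0.15). Gna13 was the gene of rank 8 in likeness to Gna12 (0.20). Gnal was at rank 6267 for Gnas (0.49) and Gna11 at rank 624 for Gnaq (0.16). For Gnao1, Gnai1 was at rank 2348 (0.20), Gnai3 at 6183 (0.33) and Gnai2 at 6574 (0.34). Libraries of a group share their preparation, and these values are a description.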

How the data were processed

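TRAP and input RNA of vHPC was sequenced in 12 libraries. Per the labels, reads were mapped to mm9 with TopHat, and the authors counted them per gene with HTSeq-count on Gencode vM1, leaving out reads with several alignments. The deposited counts were neither normalized nor filtered, and the strand setting is not given in the sources used here. The authors name DESeq2 for their comparisons. The members and gene lists were chosen with earlier results of these data known.

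Groups were taken from the titles, where a title without the word input was read as TRAP. In R 4.3.3, edgeR 4.0.16 was run with filterByExpr by group, TMM, robust dispersion and the quasi-likelihood test, and p-values were adjusted with Benjamini-Hochberg over all genes tested. TRAP was compared with input over all 12 libraries and within each genotype, KO with WT in TRAP and in input, and the ratios between genotypes as an interaction. Replicates are pools of mice, and the p-values measure the spread between pools. CPM floors cover counting error only. The steps were tested on simulated counts with known changes. Exon stretches were aligned with minimap2 2.31, and positions and lengths came from Gencode vM1.

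Named were all 10 members, Fosb, and of each list the 2 highest and 2 lowest genes that passed for TRAP against input, and for KO against WT the smallest unadjusted p under 0.05 in each direction, plus the 2 genes most like a member of each class. Titles give the TRAP and input library of a pool the same number. Deviations from group means correlated at 0.0582 to 0.106 across genes between such libraries and below 0 between TRAP and input libraries of 1 genotype with different numbers. Deviations within a group sum to 0, so the values below 0 follow on average from those above 0. Between WT and KO libraries numbered 2 or 3, which are different mice, they ran from -0.123 to 0.0856. These values do not establish the pairing, which rests on the titles. Alternatives were RLE or total counts in place of TMM, no filter, a mean of at least 10 counts, no mitochondrial genome genes, no robust dispersion, DESeq2 1.42.0, a replicate block, leaving out each library, a pseudocount of 2 and the longest transcript as length. Recordings, staining and behavior of the study were not analysed here, and 1 further list of effector genes is not reported here.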

Additional observations from a re-analysis of the deposited data

How the results depend on the processing

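Direction and call of the TRAP to input ratio of Gnai1, Gnai2, Gna12 and Gna13 were the same under every alternative run, over both genotypes and within each, with log2 ratios over both genotypes of 0.43 to 0.52, -0.57 to -0.46, -1.30 to -1.10 and -1.48 to -1.34. Over both genotypes Gnas was also called throughout (0.55 to 0.77). Gna11 was not called with RLE (adjusted p = 0.0587), no filter (0.0891), a mean of at least 10 counts (0.0524) or no mitochondrial genome genes (0.0587), and Gnal in KO was called without mitochondrial genome genes (adjusted p = 0.0459), all in edgeR. Without a filter, the median of all genes moved by more than 0.1 towards input.

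Leaving out 1 library at a time gave 5 to 7 members and 5220 to 5684 genes called over both genotypes, 4 to 5 members and 2258 to 3000 genes in WT, and 5 to 6 members and 2793 to 3668 genes in KO. It gave 0 members called for KO against WT and for the interaction, with 5 to 20 genes in TRAP, 1 to 5 in input and 0 to 1 for the interaction. Genes called between KO and WT numbered 8 in TRAP, 41 with no filter and 18 with DESeq2, and 4 in input, 19 with no filter and 8 with DESeq2. The interaction had 1, and 0 without robust dispersion.

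For TRAP against input the replicate block, pool by genotype, gave 7 members called over both genotypes, 5 in WT and 6 in KO, and changed no call but that of Gnal in KO. For KO against WT shared numbers are different mice, and the block gave 0 members called, with 6 genes in TRAP and 20 in input. It turned the sign of uncalled values in TRAP for Gnai1 (0.015), Gnal (0.0050) and Gnaq (0.034).

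Other signs that turned were of values near 0 that were not called: Gnaq in WT for TRAP against input (0.0015) with RLE (-0.011), total counts (-0.0029), a mean of at least 10 counts (-0.0029), no mitochondrial genome genes (-0.019) and DESeq2 (-0.011), Gnai1 (0.019), Gnaq (0.017) and Gna11 (0.013) for KO against WT in TRAP with total counts, and Gnal (0.0091) and Gna13 (0.011) for the interaction with total counts. Leaving out a library turned the sign of uncalled values too, over ranges of -0.064 to 0.017 for Gnaq over both genotypes, -0.054 to 0.10 for Gnaq in WT and -0.17 to 0.26 for Gnai3 in KO. For KO against WT in TRAP the ranges were -0.077 to 0.076 for Gnai1, -0.15 to 0.0071 for Gnal, -0.057 to 0.020 for Gnaq and -0.057 to 0.033 for Gna11, and in input -0.21 to 0.10 for Gna12 and -0.062 to 0.071 for Gnal. For the interaction they were -0.029 to 0.17 for Gnai2, -0.43 to 0.0090 for Gnas, -0.16 to 0.017 for Gnal, -0.022 to 0.089 for Gna11 and -0.16 to 0.10 for Gna13. The cause was not tested. With 3 pools a group, the intervals between genotypes were widest for Gnai3, Gna12 and Gna13, the members of lowest counts, and in input also for Gnas.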
